A study of Mus musculus with 6 samples.

Results

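Transcripts of 10 cytotoxic effector genes were followed in CD4+ T cells from the spleen of colitic mice. The genes were the granzymes Gzma, Gzmb, Gzmk and Gzmm, the pore-forming Prf1, the granule proteins Ctsw and Nkg7, the receptor Klrk1, and the chemokines Ccl4 and Ccl5. They were taken by gene symbol from the deposited count and FPKM tables, and all 10 were found once among the 54532 genes listed. In the libraries from mice given Akkermansia muciniphila, Gzma averaged 22.1 ± 2.63 CPM (counts scaled to library size), against 5.81 ± 2.47 with PBS, and Prf1 averaged 43.4 ± 7.86 against 20.4 ± 2.66 (SD, n = 3). Ctsw and Klrk1 were also higher. Gzmb, Gzmk, Gzmm, Nkg7, Ccl4 and Ccl5 did not pass the test.

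All mice were wild-type C57BL/6J with colitis from dextran sulfate sodium (DSS), which damages the lining of the colon when it is drunk in water. The Akkermansia group received the bacterium A. muciniphila every day and the control group received PBS, with 3 libraries each, described as biological replicates. Not given in the sources used here were dose, duration, age and the method of cell isolation, and all 6 libraries carry the batch label 1. In both groups, the descriptions name CD4 for library 1, CD5 for library 2 and CD6 for library 3, although the cell type entry is CD4+ T cells throughout.

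Cytotoxic lymphocytes kill by releasing granules onto a target cell. Perforin, the product of Prf1, opens the target membrane, and granzymes, which are serine proteases, enter and cleave substrates inside it. The program is best known from CD8 T cells and natural killer (NK) cells, and a minority of CD4 T cells and other innate-like lymphocytes can also express it.

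The libraries held 15032257 to 16677923 counts. Levels in CPM are after scaling by the trimmed mean of M values, and each log2 fold change compares Akkermansia with PBS and has its standard error (SE). Adjusted p-values are from edgeR's quasi-likelihood test over 15138 genes, called at 0.05. The CD4 T cell markers were abundant in every library, with 10 of 10 tested and a summed level of 4220 to 4449 CPM with PBS and 4532 to 4710 CPM with Akkermansia. Of these markers 5 were higher and 1 lower, while 7.32% of all genes tested were higher and 8.28% lower. Cd4, the coreceptor, rose from 688 ± 31.9 to 884 ± 29.6 CPM (adjusted p = 0.00428), and Cd28, a costimulatory receptor, fell from 595 ± 97.1 to 325 ± 33.0 CPM (SD, n = 3; adjusted p = 0.00163).

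Of the 10 effector genes, 4 were higher with Akkermansia, while 7.32% of all genes tested were higher and 15.6% were called in either direction. Without a replicate block, none was lower by edgeR, by DESeq2 or by limma-voom, and 0 were lower at an unadjusted p under 0.05. Among all genes tested 8.28% were lower. The Akkermansia libraries lay above every PBS library in 5 of the 10 genes, as in 17.1% of all genes tested. The median log2 fold change of the 10 genes was 0.54, beside -0.0081 over all genes tested. In bulk RNA, a change in the number of cells of a type and a change in RNA per cell cannot be told apart.

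**Figure D1:**
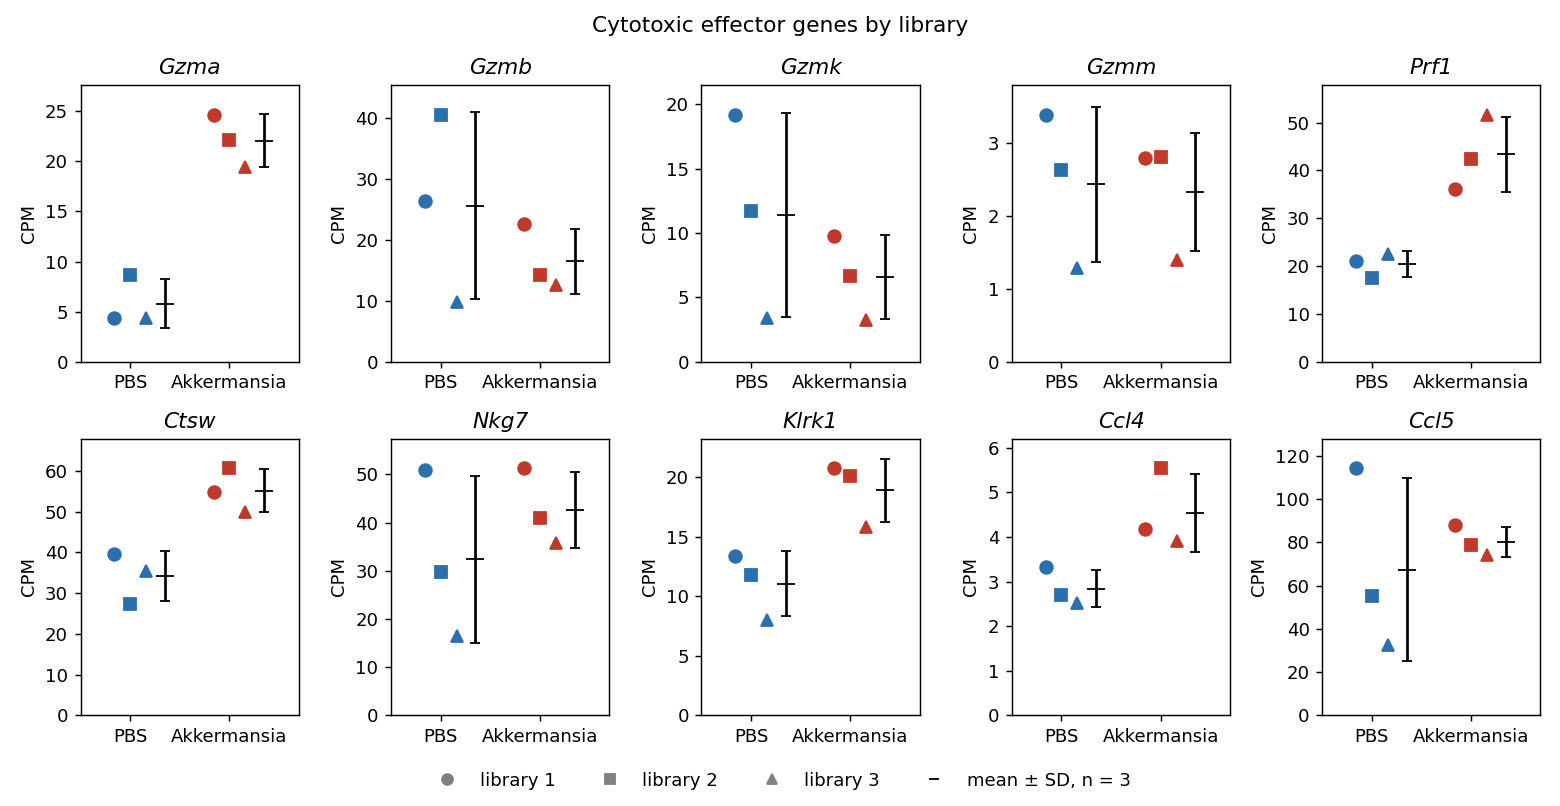
Level of each effector gene in each library, in CPM, with 1 point per library (circle, square and triangle for libraries 1, 2 and 3) and the group mean ± SD (n = 3). For Gzma, Prf1, Ctsw, Klrk1 and Ccl4 the 3 Akkermansia points lie above the 3 PBS points, and for the other 5 genes the groups overlap.

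Gzma encodes granzyme A, a tryptase that cleaves after basic residues. It stood at 24.7, 22.1 and 19.4 CPM in Akkermansia 1, 2 and 3, from 390, 331 and 293 counts. In PBS 1, 2 and 3 it stood at 4.35, 8.67 and 4.42 CPM, from 72, 132 and 72 counts. The lowest Akkermansia library was above the highest PBS library, PBS 2. Gzma rose by 1.93 ± 0.25 (log2, SE; adjusted p = 0.000977) and was rank 26 by size among the 1108 genes called higher.

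Gzmb encodes granzyme B, which cleaves after aspartate and activates caspases. Its level was 22.6, 14.2 and 12.6 CPM in Akkermansia 1, 2 and 3 and 26.4, 40.6 and 9.87 CPM in PBS 1, 2 and 3. The groups overlapped, and the PBS libraries held both the highest and the lowest value. The log2 fold change was -0.63 ± 0.60 (adjusted p = 0.564).

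Gzmk encodes granzyme K, another tryptase, whose gene neighbours Gzma on chromosome 13. Its level was 9.80, 6.67 and 3.25 CPM in Akkermansia 1, 2 and 3 and 19.2, 11.7 and 3.37 CPM in PBS 1, 2 and 3. In both groups library 1 was highest and library 3 lowest, and the groups overlapped. The log2 fold change was -0.79 ± 0.77 (adjusted p = 0.57). An edgeR fit blocked on replicate number called Gzmk lower (log2 -0.68, adjusted p = 0.033), but whether the numbers pair the libraries cannot be decided.

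Gzmm, which encodes the methionine-preferring granzyme M, was near the lower end of the 10 genes. It stood at 2.78, 2.80 and 1.39 CPM in Akkermansia 1, 2 and 3 and at 3.38, 2.63 and 1.29 CPM in PBS 1, 2 and 3. Library 3 was lowest in both groups, and the log2 fold change was -0.06 ± 0.39 (adjusted p = 0.936). Its sign changed when single libraries were left out, over a range from -0.37 to 0.24.

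The 4 granzymes therefore did not move as a block. On the FPKM scale, which is also adjusted for gene length, their summed level was 49.1, 38.5 and 31.5 in Akkermansia 1, 2 and 3 and 38.4, 47.2 and 14.4 in PBS 1, 2 and 3. The summed levels overlapped, but the share of Gzma in them did not. Gzma made up 49.8%, 56.9% and 61.6% of the sum with Akkermansia, against 11.1%, 18.3% and 30.1% with PBS. Gzmb made up 28.5 ± 3.18% with Akkermansia and 51.5 ± 7.38% with PBS (SD, n = 3). Gzmk made up 11.4 ± 3.56% and 23.4 ± 10.6%, and Gzmm 3.93 ± 0.962% and 5.24 ± 1.26%. The shares of Gzmb and of Gzmk also did not overlap between the groups, while those of Gzmm did. Shares of a sum depend on each other, so a larger share of Gzma leaves less for the rest. The levels of Gzmb and Gzmk themselves overlapped and did not pass the test.

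**Figure D2:**
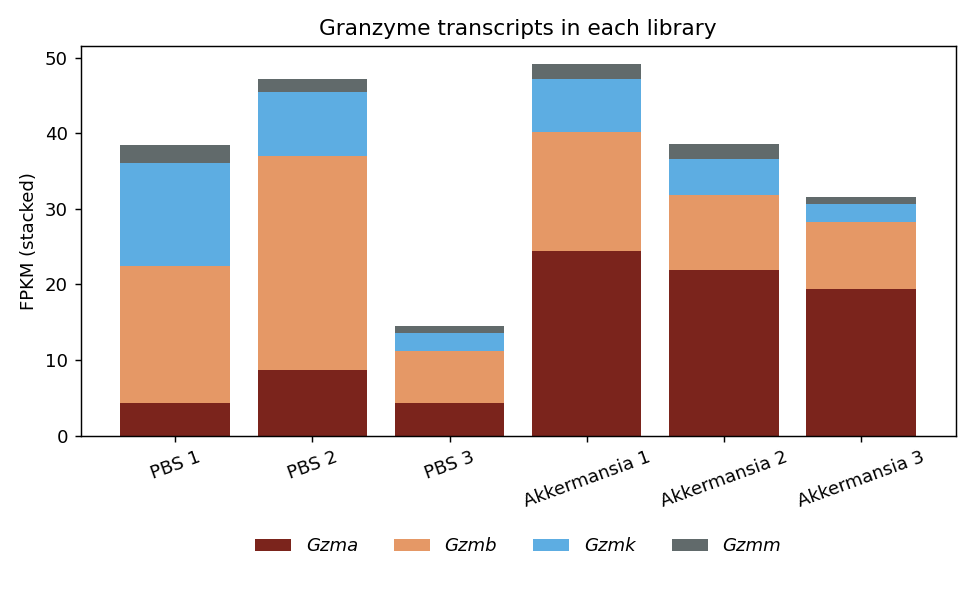
FPKM of the 4 granzymes stacked in 1 bar per library, so that the bar height is their summed FPKM. Gzma, the lowest segment, holds 49.8% to 61.6% of the sum in the Akkermansia libraries and 11.1% to 30.1% in the PBS libraries.

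The neighbouring genes Gzma and Gzmk also differed within libraries. The FPKM ratio of Gzma to Gzmk was 3.48, 4.57 and 8.26 in Akkermansia 1, 2 and 3 and 0.312, 1.02 and 1.80 in PBS 1, 2 and 3. These ratios did not overlap between the groups. Gzma itself rose without overlap, so its ratio to a gene with little change would also tend to be higher. The FPKM ratios of Gzmb to Prf1 and of Ccl4 to Ccl5, planned with it, overlapped between the groups. All these ratios and the shares were described and not tested.

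Prf1 encodes perforin. It stood at 36.0, 42.4 and 51.7 CPM in Akkermansia 1, 2 and 3 and at 21.1, 17.5 and 22.6 CPM in PBS 1, 2 and 3. Every Akkermansia library was above every PBS library, and Prf1 rose by 1.09 ± 0.14 (log2, SE; adjusted p = 0.00051). The lowest Prf1 value with Akkermansia was in library 1, where Gzma, Gzmb and Gzmk were at their highest.

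Ctsw encodes cathepsin W, a cysteine protease found in cytotoxic lymphocytes. It stood at 54.9, 60.7 and 50.0 CPM in Akkermansia 1, 2 and 3 and at 39.6, 27.4 and 35.4 CPM in PBS 1, 2 and 3. The groups did not overlap, and Ctsw rose by 0.69 ± 0.13 (log2, SE; adjusted p = 0.00411). In GENCODE M21, Ctsw overlaps Fibp on the opposite strand, and no source used here names the strand setting of the counting. Fibp, a fibroblast growth factor binding protein gene, had 483 to 542 counts per library and a log2 fold change of -0.02 (adjusted p = 0.91).

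Nkg7 encodes a granule membrane protein needed for efficient exocytosis. Its level was 51.3, 41.0 and 35.8 CPM in Akkermansia 1, 2 and 3 and 50.9, 29.7 and 16.6 CPM in PBS 1, 2 and 3. Library 1 was highest and library 3 lowest in both groups, the groups overlapped, and the log2 fold change was 0.40 ± 0.46 (adjusted p = 0.64).

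Klrk1 encodes NKG2D, an activating receptor for stress-induced ligands. It stood at 20.7, 20.1 and 15.8 CPM in Akkermansia 1, 2 and 3 and at 13.4, 11.8 and 8.03 CPM in PBS 1, 2 and 3. As for Gzmk and Nkg7, library 1 was highest and library 3 lowest in both groups. The groups did not overlap, and Klrk1 rose by 0.77 ± 0.18 (log2, SE; adjusted p = 0.0148). That call was lost without Akkermansia 1 (adjusted p = 0.0637) or Akkermansia 2 (0.0687), and in limma on log2(FPKM + 1) (0.0616) and log2(FPKM + 0.1) (0.0674).

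Ccl4 encodes a chemokine that attracts lymphocytes and monocytes. It stood at 4.17, 5.54 and 3.91 CPM in Akkermansia 1, 2 and 3 and at 3.32, 2.69 and 2.51 CPM in PBS 1, 2 and 3. The groups did not overlap, but the log2 fold change of 0.67 ± 0.25 did not pass (adjusted p = 0.0933). On log2(FPKM + 1) and log2(FPKM + 0.1) limma gave adjusted p = 0.0438 and 0.0425.

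Ccl5, a chemokine made by memory and cytotoxic T cells, had the highest FPKM of the 10 genes in both groups. Its level was 87.8, 78.7 and 74.2 CPM in Akkermansia 1, 2 and 3 and 114, 55.1 and 32.6 CPM in PBS 1, 2 and 3. As for Gzmk and Nkg7, library 1 was highest and library 3 lowest in both groups. PBS 1 was above, and PBS 2 and PBS 3 were below, all Akkermansia libraries. The log2 fold change of 0.25 ± 0.51 (adjusted p = 0.80) became -0.08 without PBS 3 and 0.86 without PBS 1.

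**Figure D3:**
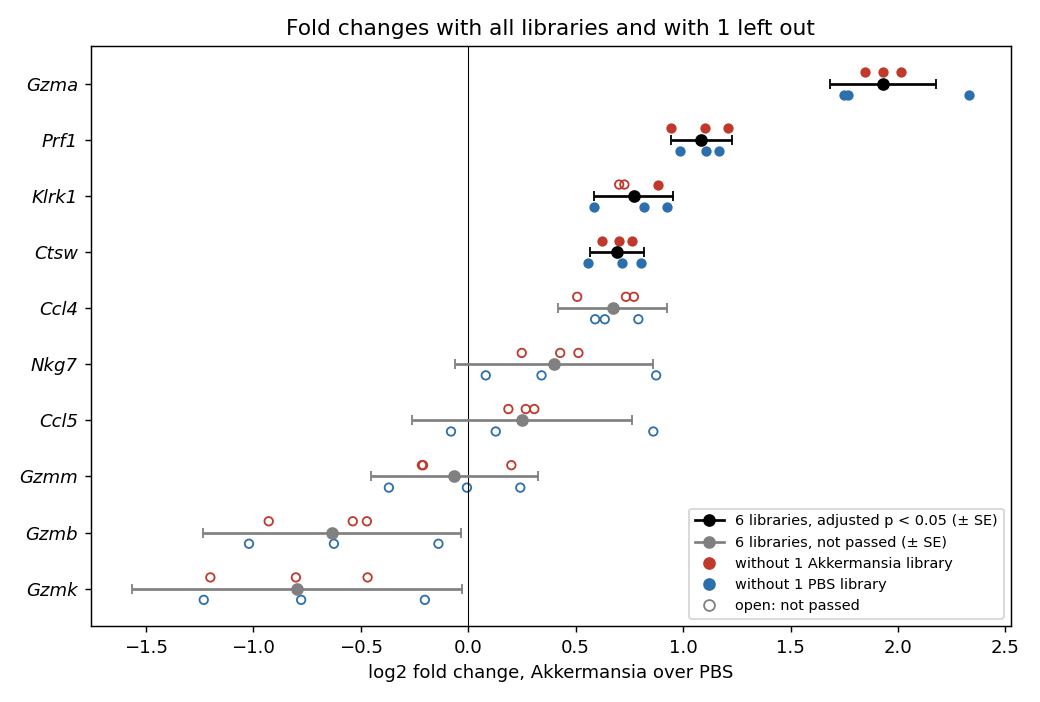
Log2 fold change of each effector gene, Akkermansia over PBS, with its standard error as bars and small points for the fits without 1 Akkermansia library (red) or 1 PBS library (blue), open where the call was not made. Gzma (1.93), Prf1 (1.09) and Ctsw (0.69) have filled points throughout, and Klrk1 (0.77) has 2 open points.

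The spread among PBS libraries differed between the genes. With PBS the coefficient of variation of CPM was 69.3% for Gzmk, 62.6% for Ccl5 and 53.4% for Nkg7, but 13.0% for Prf1, 14.9% for Ccl4 and 18.0% for Ctsw. With Akkermansia it was 49.9% for Gzmk, 8.62% for Ccl5 and 18.5% for Nkg7, and 18.1% for Prf1, 19.3% for Ccl4 and 9.66% for Ctsw. Prf1 and Ccl4 thus varied more with Akkermansia than with PBS, and the other genes varied less. Gzma went from 42.6% with PBS to 11.9% with Akkermansia, Gzmm from 43.6% to 34.8% and Klrk1 from 24.9% to 14.1%. For Gzmb the coefficient of variation of FPKM was 60.6% with PBS and 32.2% with Akkermansia. Among 8294 genes in the same range of levels, the median coefficient was 11.8% with PBS and 9.23% with Akkermansia.

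Per gene length, Ccl5 was followed by Nkg7 and Ctsw in both groups. With Akkermansia the mean FPKM was 83.6 for Ccl5, 46.7 for Nkg7, 44.8 for Ctsw, 21.9 for Gzma, 16.8 for Prf1 and 11.5 for Gzmb. Ccl4 followed at 6.89, Gzmk at 4.73, Klrk1 at 2.63 and Gzmm at 1.58. In that order, Nkg7 and Ctsw overlapped, as did Gzma with Prf1, Prf1 with Gzmb, Ccl4 with Gzmk, and Gzmk with Klrk1. With PBS the mean FPKM was 69.6 for Ccl5, 35.2 for Nkg7, 27.5 for Ctsw, 17.8 for Gzmb, 8.17 for Gzmk, 7.85 for Prf1 and 5.75 for Gzma. Ccl4 stood at 4.28, Gzmm at 1.64 and Klrk1 at 1.53, and of all neighbours in the PBS order only Ccl4 and Gzmm did not overlap. Gzma thus held place 4 of 10 with Akkermansia and place 7 with PBS.

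The promoters of Gzma, Prf1, Klrk1, Gzmb and Gzmk are shown to set 3 genes that rose beside 2 granzymes that did not pass. They are the bases before the first RefSeq start site that lie outside the gene, read on the gene's own strand in build GRCm38.p6, which differs from the GRCm39 of the files. Gzma is at chr13:113100982-113101231, Klrk1 at chr6:129623904-129624114, Gzmb at chr14:56262335-56262584 and Gzmk at chr13:113180966-113181215, all on the minus strand, and Prf1 is at chr10:61297586-61297750 on the plus strand. Capitals mark matches on either strand to the Runx motif TGTGGT, the T-box motif TCACACC, the AP-1 motif TGANTCA or the STAT motif TTCNNNGAA.
Gzma: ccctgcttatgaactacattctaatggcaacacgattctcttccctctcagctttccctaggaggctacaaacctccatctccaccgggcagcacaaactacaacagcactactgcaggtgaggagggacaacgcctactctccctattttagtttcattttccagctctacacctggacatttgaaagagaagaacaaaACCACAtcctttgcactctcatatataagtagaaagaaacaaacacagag
Prf1: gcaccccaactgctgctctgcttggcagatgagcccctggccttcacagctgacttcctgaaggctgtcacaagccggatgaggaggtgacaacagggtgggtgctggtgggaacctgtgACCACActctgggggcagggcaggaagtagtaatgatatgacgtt
Klrk1: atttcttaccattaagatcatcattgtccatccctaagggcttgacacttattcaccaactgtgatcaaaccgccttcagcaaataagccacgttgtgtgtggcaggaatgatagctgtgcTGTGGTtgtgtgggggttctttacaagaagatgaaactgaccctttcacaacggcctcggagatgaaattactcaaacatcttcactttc
Gzmb: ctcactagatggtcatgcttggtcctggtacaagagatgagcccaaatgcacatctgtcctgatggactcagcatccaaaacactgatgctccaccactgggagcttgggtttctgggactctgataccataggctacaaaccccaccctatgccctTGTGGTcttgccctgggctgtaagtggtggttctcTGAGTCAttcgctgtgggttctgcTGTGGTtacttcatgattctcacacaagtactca
Gzmk: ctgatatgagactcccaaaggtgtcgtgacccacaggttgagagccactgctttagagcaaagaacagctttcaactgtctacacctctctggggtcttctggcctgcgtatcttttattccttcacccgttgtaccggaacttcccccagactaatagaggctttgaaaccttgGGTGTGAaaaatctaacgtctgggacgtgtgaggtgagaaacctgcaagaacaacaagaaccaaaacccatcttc

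The Runx letters were present before Gzma, 50 bases before its start, and before Prf1 and Klrk1 at 130 and 129 bases. Before Gzmb they stood at 2 places, at 93 and 34 bases. Distances run to the first start site, over a window of 250 bases. The Prf1 and Klrk1 stretches shown stop at the edge of the gene, short of that site, and hold 165 and 211 of these bases. Gzmb also held the AP-1 letters, and Gzmk held the T-box letters but not the Runx letters. Of 7 effector genes with a promoter in the table, 6 held the Runx letters in the window of their first start site, while 14.0% of all 32851 promoters of the same length did. The T-box letters were in 2 of the 7 (3.33% of all), the AP-1 letters in 1 (6.75% of all) and the STAT letters in 2 (7.02% of all), and no match overlapped another. Genes that rose and genes that did not pass both held Runx letters, and these matches are descriptions of sequence, not of binding.

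The other genes of the pathway were read from 7 lists of 52 genes, of which 43 were tested, 10 were higher and 4 lower. Their median log2 fold change was 0.13. Among all genes tested 7.32% were higher and 8.28% lower, and the counts of the single lists below stand beside these shares. The number of pathway genes higher was 6 without Akkermansia 1 or without Akkermansia 2. The number lower was 2 without either of these and 0 without Akkermansia 3.

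Of 6 further granzymes, only Gzmc was tested, and it averaged 0.549 CPM with Akkermansia and 0.838 CPM with PBS (log2 fold change -0.60, adjusted p = 0.502). Gzmd, Gzme, Gzmg and Gzmn had 0 counts in every library, and Gzmf had 1 count in PBS 3. A count of 0 allows up to 3 counts, or 0.18 to 0.20 CPM per library, by counting error alone.

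Of 13 tested genes for granule maturation and release, 3 were higher and 2 lower. Lyst, the lysosomal trafficking regulator mutated in beige mice, rose from 153 ± 10.1 to 247 ± 13.4 CPM (SD, n = 3; log2 0.69 ± 0.07, SE; adjusted p = 0.000104). Ctsh, the protease cathepsin H, rose from 15.8 to 24.9 CPM (adjusted p = 0.00499). Srgn, the proteoglycan serglycin on which granzymes are packed, fell from 317 ± 48.0 to 231 ± 15.8 CPM (adjusted p = 0.0108), and the fall did not pass without Akkermansia 3 (0.0593). Cst7, the cathepsin inhibitor cystatin F, fell from 24.1 to 13.8 CPM (adjusted p = 0.0159), but not without Akkermansia 1 or Akkermansia 3. The third gene higher was Unc13d, which primes granules for fusion (206 and 247 CPM, adjusted p = 0.0318). It was named after its value was seen, and it passed without PBS 3 but without no other single library. Ctsc, which removes the granzyme propeptide, and Serpinb9, the inhibitor of granzyme B, had log2 fold changes of -0.15 and -0.23 and did not pass (adjusted p = 0.23 and 0.493).

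Among 5 death ligands and effector cytokines, Fasl, the ligand of the death receptor Fas, fell from 20.9 ± 4.80 to 13.3 ± 3.01 CPM (SD, n = 3; adjusted p = 0.0423). Leaving out any library other than Akkermansia 1 or PBS 3 ended that call, as did limma-voom, upper-quartile scaling and the FPKM fits. Without PBS 3, 1 gene of the list was called higher. Ifng, the cytokine interferon gamma, had a log2 fold change of -0.57 and did not pass (adjusted p = 0.472).

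Of 5 chemokines and receptors, 3 were higher. Ccl3, the close relative of Ccl4, stood at 5.82, 6.81 and 6.49 CPM in Akkermansia 1, 2 and 3 and at 3.50, 2.36 and 3.74 CPM in PBS 1, 2 and 3 (log2 0.99 ± 0.23, SE; adjusted p = 0.0131). Xcl1, the ligand of XCR1 on cross-presenting dendritic cells, rose from 2.30 to 5.02 CPM (adjusted p = 0.0148). Ccr3, the eotaxin receptor, which also binds Ccl5, rose from 10.7 to 20.1 CPM (adjusted p = 0.0358). The number called was 1 when any of the Akkermansia libraries was left out. The Ccl3 call was lost without Akkermansia 2 or Akkermansia 3, that of Xcl1 without Akkermansia 1, and that of Ccr3 without any single library except PBS 2.

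Among the 4 tested partners of NKG2D, the ligand gene Ulbp1 rose from 20.4 ± 3.04 to 31.3 ± 0.772 CPM (SD, n = 3; adjusted p = 0.00428). Hcst, the signalling adaptor DAP10, did not pass (log2 -0.13, adjusted p = 0.651).

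Of 8 transcription factors of cytotoxic lymphocytes, Runx3 and Zfp683 were higher. Runx3, a factor of CD8 lineage and effector programs, stood at 131, 121 and 145 CPM in Akkermansia 1, 2 and 3 and at 88.1, 82.7 and 101 CPM in PBS 1, 2 and 3 (log2 0.55 ± 0.09, SE; adjusted p = 0.00161). Zfp683, which encodes the tissue-residency factor Hobit, rose from 6.37 to 15.1 CPM (log2 1.24 ± 0.19, SE; adjusted p = 0.000998). Prdm1, which encodes Blimp-1, fell from 25.0 to 16.6 CPM (adjusted p = 0.0325), a call that passed without PBS 3 but without no other single library. The T-box factors Tbx21 and Eomes had log2 fold changes of 0.37 ± 0.43 and 0.37 ± 0.13 and did not pass (adjusted p = 0.643 and 0.0664). Without PBS 1, where Tbx21 was highest, its log2 fold change was 0.85 (adjusted p = 0.047). Without PBS 2, 4 of the 8 factors were called higher.

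Of 7 surface genes of cytotoxic lymphocytes, S1pr5, a sphingosine 1-phosphate receptor that guides NK cells out of tissues, was called. It stood at 8.54, 4.87 and 4.70 CPM in Akkermansia 1, 2 and 3 and at 2.48, 2.23 and 0.429 CPM in PBS 1, 2 and 3 (log2 1.82 ± 0.52, SE; adjusted p = 0.0483). Akkermansia 1 and PBS 3 stood apart within their groups. The call was lost without any single library except PBS 3. Of the 7 genes, 0 were called when Akkermansia 1 or 2 was left out, 3 when PBS 1 was and 2 when PBS 3 was.

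**Figure D4:**
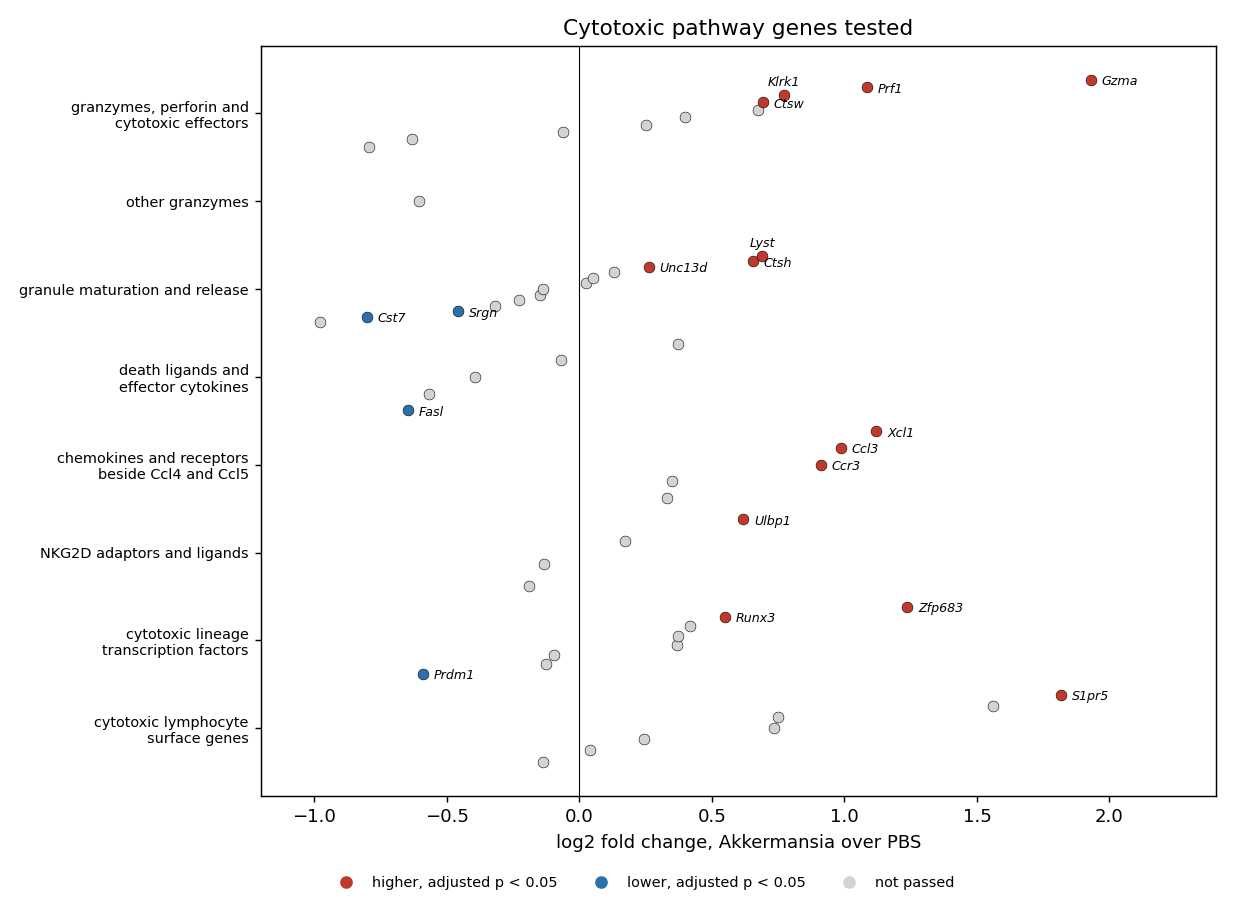
Log2 fold change of each tested pathway gene, Akkermansia over PBS, with 1 point per gene, the 10 effector genes in the top row and the 7 pathway lists below, and colour for genes higher (red) or lower (blue) at an adjusted p below 0.05. Of the 43 pathway genes, 10 were higher and 4 lower.

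Markers of other cell types moved in the same comparison. Of 58 such markers in 8 lists, 51 were tested and 25 were higher, with a median log2 fold change of 0.91, and none had 0 counts in all 6 libraries. Over all genes tested 7.32% were higher. Both CD8 T cell markers, Cd8a and Cd8b1, were higher, and their summed level was 19.1 to 20.2 CPM with PBS and 61.3 to 93.4 CPM with Akkermansia. Of 12 NK cell markers 7 were higher, with a summed level of 54.0 to 72.8 CPM with PBS and 89.4 to 100.6 CPM with Akkermansia. Ncr1, the receptor NKp46, which defines NK cells, averaged 0.668 CPM with PBS and 3.14 CPM with Akkermansia, whereas the NK1.1 gene Klrb1c had a log2 fold change of -0.15 (adjusted p = 0.743). The part of CD8 T cells and NK cells in the rises of Gzma, Prf1, Ctsw and Klrk1 was not tested.

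The summed markers of gamma-delta and NKT cells were 19.8 to 24.5 CPM with PBS and 28.8 to 31.0 CPM with Akkermansia, with 1 of 5 tested genes higher. All 10 B cell markers were higher, summed to 840 to 880 and 1195 to 1331 CPM. Dendritic cell markers (3 of 6 higher) summed to 15.1 to 22.3 and 34.8 to 39.7 CPM, and monocyte and macrophage markers (1 of 8 higher) to 423 to 511 and 519 to 566 CPM. Neutrophil markers (1 of 7 tested higher) summed to 14.6 to 57.5 and 76.2 to 167 CPM, and the mast cell and basophil markers to 0.846 to 0.985 and 1.06 to 2.27 CPM. Leaving out single libraries left 0 of the gamma-delta and NKT cell genes called. It left 1 of the dendritic cell genes called without Akkermansia 1, Akkermansia 3, PBS 1 or PBS 3. The monocyte and macrophage count was 2 without Akkermansia 1 and 3 without PBS 2, and the neutrophil count was 2 without PBS 1 or PBS 3. The part of these cell types in the effector results was not tested either.

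**Figure D5:**
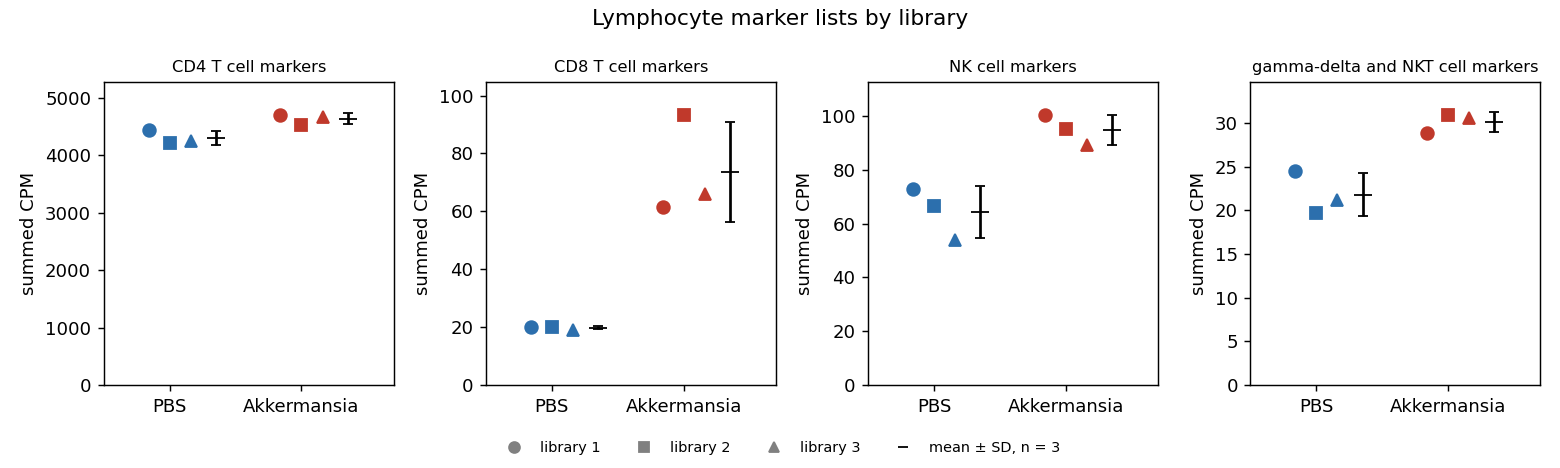
Summed level of 4 lymphocyte marker lists, in CPM, with 1 point per library and the group mean ± SD (n = 3). The CD8 T cell markers sum to 61.3 to 93.4 CPM in the Akkermansia libraries and 19.1 to 20.2 CPM in the PBS libraries.

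Within libraries, the effector genes were also set against the CD8 genes. The FPKM ratio of Gzma to Cd8a was 2.66, 1.54 and 2.26 in Akkermansia 1, 2 and 3 and 1.92, 4.39 and 1.69 in PBS 1, 2 and 3, which overlapped. For the other 9 genes the ratio to Cd8a was lower in every Akkermansia library than in every PBS library. Cd8a itself rose without overlap, so a gene with little change would also tend to have a lower ratio. The share of all genes with a lower ratio was not computed. For Prf1 the ratio to Cd8a was 1.67 ± 0.612 with Akkermansia and 3.49 ± 0.139 with PBS (SD, n = 3), and for Ctsw 4.35 ± 0.776 and 12.2 ± 1.79. Cd8a rose by 2.23 ± 0.21 (log2, SE), more than each of the 10 genes, but Cd8b1 rose by 1.60 ± 0.16 (adjusted p = 9.1e-05), less than Gzma. Set against Cd8b1, which was chosen as the divisor after the data were seen, only 6 of the 10 ratios were lower in every Akkermansia library, and those of Gzma, Gzmk, Prf1 and Nkg7 overlapped. The ratio of Gzma to Cd8b1 was 0.970 ± 0.292 with Akkermansia and 0.734 ± 0.225 with PBS (SD, n = 3), and that of Prf1 was 0.726 ± 0.133 and 1.05 ± 0.285. Cd8b1 also rose without overlap, so the count of lower ratios to it has the same limit. These ratios were described with no test.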

How the data were processed

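Poly(A)-selected RNA of 6 splenic CD4+ T cell libraries was sequenced, per the labels' protocols. The authors deposited whole-number counts per gene and FPKM values, and the submitters' processing notes name build GRCm39. Not given in the sources used here are aligner, counter, annotation and strandedness. Over 5248 genes, deposited FPKM was reproduced within 0.514% from counts and 1 length per gene.

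Counts were filtered with filterByExpr (minimum count 10, minimum total 15), which left 15138 genes. They were scaled by TMM (factors 0.990 to 1.014) and tested with edgeR 4.0.16 in R 4.3.3 (robust quasi-likelihood F test, two-sided, no covariate). P-values were adjusted by Benjamini-Hochberg over these genes. The SE is the log2 fold change divided by the root of F. The procedure was tested on simulated data. Replicates differed by 14.8 to 19.9 times the sampling variance with PBS and by 4.47 to 6.17 times with Akkermansia. None was thus a repeated read of another library, but whether they came from separate mice cannot be decided from this. P-values set each group difference against the spread between these libraries, as moderated across genes.

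Alternatives were DESeq2 1.42.0, limma 3.58.1 (voom, and trend on log2(FPKM + 1) and log2(FPKM + 0.1)), other scalings and filters, a fit blocked on replicate number, and fits without each single library. Promoters were RefSeq's (GRCm38.p6), found for 7 of 10 genes. Figures were drawn with matplotlib 3.10.9. Named were the 10 genes, up to 4 called genes per list, landmark genes and chromosomal neighbours, of which the text gives a part, and 1 landmark gene is not reported here. The members and lists were chosen with earlier results of these data known.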

Additional observations from a re-analysis of the deposited data

How the results depend on the processing

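Gzma, Prf1 and Ctsw passed in all 16 alternatives run, and their log2 fold changes without single libraries ran from 1.75 to 2.33, 0.94 to 1.21 and 0.56 to 0.80. The number of effector genes higher was 3 to 4 without single libraries, and the number lower was 1 with a replicate block and 0 in the other alternatives. Pathway genes higher were 16 without a filter on low counts and 6 to 12 without single libraries. Pathway genes lower were 1 on log2(FPKM + 1), 1 on log2(FPKM + 0.1) and 0 to 5 without single libraries. Other cell type markers lower were 0 to 1, and all genes called 519 to 1287 higher and 623 to 1413 lower. The count of all genes was 647, 519, 535 and 679 higher and 755, 623, 638 and 794 lower without Akkermansia 1, 2, 3 and PBS 1. Signs turned without single libraries for Ccl5 (-0.080 to 0.86), Gzmm (-0.37 to 0.24), Hcst (-0.25 to 0.091), Klrb1c (-0.44 to 0.11), Serpinb9 (-0.41 to 0.0091) and Fibp (-0.091 to 0.036), and for Fibp under upper-quartile scaling (0.0029). The cause was not tested. Whether replicate numbers pair the libraries cannot be decided from 3 libraries a group. Same-numbered libraries correlated at 0.0846, 0.0774 and 0.0303 after removal of group means, and each correlated best with its own number. With that replicate block Gzmk was called lower (log2 -0.68, adjusted p = 0.033), and 1205 genes were higher and 1333 lower. With 3 libraries a group, the wide PBS spread of Gzmb, Gzmk, Nkg7 and Ccl5 limits what could be called.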

Other observations

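Chromosomal neighbours of the effector genes were read from the reference table. On chromosome 6, Klrk1 lies between Klrd1, which encodes the NK receptor chain CD94, and Klrc3, which encodes an NKG2 family receptor. Klrd1 rose by 0.76 ± 0.13 (log2, SE; edgeR adjusted p = 0.00244), close to the 0.77 of Klrk1. Klrc3 rose by 2.36 ± 0.55 (adjusted p = 0.0127), a call lost without Akkermansia 1 or Akkermansia 3. On chromosome 11, Ccl4 lies beside Ccl3, which rose, and Wfdc17, whose log2 fold change of -1.57 ± 0.54 did not pass (adjusted p = 0.0679). Wfdc17 did pass as lower in DESeq2 (adjusted p = 0.0393), with no filter on low counts (0.00705) and without Akkermansia 1 (log2 -2.56, adjusted p = 0.0167). On chromosome 13, Gzmk lies between Gzma, which rose, and Esm1, an endothelial proteoglycan gene that fell by 1.33 on the log2 scale (adjusted p = 0.046), a call lost without any single library except PBS 2. Esm1 overlaps Gzmk on the opposite strand in GENCODE M21. Without a stated strand setting, reads in the stretch where the 2 genes overlap may not be told apart, and the length of that stretch was not computed. On chromosome 10, Adamts14, a procollagen protease gene beside Prf1, rose by 0.61 ± 0.17 (adjusted p = 0.0261), a call lost without Akkermansia 2, Akkermansia 3, PBS 1 or PBS 2. The neighbours of Gzmm, Cdc34 and Bsg, and those of Ccl5, Heatr9 and Ccl9, did not pass.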
